A study of Homo sapiens with 4 samples.

Results

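The genes described here are the 10 core pluripotency factors POU5F1, NANOG, SOX2, PRDM14, DPPA2, DPPA4, L1TD1, ZFP42, SALL4 and KLF4. They were taken as the rows that carry these symbols in each of 4 tables of read counts, 10 of 62696 genes. The counts come from RNA-seq of NT2 cells, also called NTERA-2, a human embryonal carcinoma line, which is the malignant counterpart of an early embryonic cell. The control group, called the control library below, was 1 library of NT2 cells carrying an empty vector, with the genotype given as wild type. The other group was 3 libraries of NT2 cells labelled as HYDIN2 knockdown, replicates 1 to 3. HYDIN2 is a pseudogene copied in part from the motile cilia gene HYDIN, and the study asked what its knockdown alters in the transcriptome. The cells of both groups were of 1 line in the same serum-containing medium. The knockdown method is not given in the sources used here, nor is whether the replicates were separate cultures. The spread between replicates may therefore be technical.

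Pluripotent cells can form all germ layers and hold that state through a small set of transcription factors that bind one another's genes. POU5F1 (also called OCT4) and SOX2 bind DNA side by side, and NANOG, PRDM14, SALL4 and KLF4 occupy many of the same enhancers. DPPA2 and DPPA4 form a pair of chromatin proteins, L1TD1 is an RNA-binding protein, and ZFP42 (REX1) is a zinc finger protein used as a marker of undifferentiated cells. Embryonal carcinoma cells express much of this set, and NT2 cells lose it when they are driven to form neurons.

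Of the 10 genes, 7 had a promoter window in the RefSeq table (GRCh38.p14), read here as the 250 bases before the annotated start, 5′ to 3′ on the gene's own strand. The windows of NANOG (chr12:7789152-7789401, plus strand) and SOX2 (chr3:181711675-181711924, plus strand) are shown because they held the octamer core that POU5F1 recognises. Those of the neighbouring genes DPPA2 (chr3:109316518-109316767, minus strand) and DPPA4 (chr3:109337547-109337796, minus strand) are shown because the levels of this pair parted in 1 library. Capitals mark the octamer and SOX cores. The last bases of the NANOG, SOX2 and DPPA4 windows lie in a first exon of GENCODE 29.
NANOG: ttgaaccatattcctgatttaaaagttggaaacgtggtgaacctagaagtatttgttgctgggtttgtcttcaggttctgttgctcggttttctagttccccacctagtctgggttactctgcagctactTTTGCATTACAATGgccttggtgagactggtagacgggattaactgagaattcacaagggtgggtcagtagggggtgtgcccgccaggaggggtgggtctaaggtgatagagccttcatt
SOX2: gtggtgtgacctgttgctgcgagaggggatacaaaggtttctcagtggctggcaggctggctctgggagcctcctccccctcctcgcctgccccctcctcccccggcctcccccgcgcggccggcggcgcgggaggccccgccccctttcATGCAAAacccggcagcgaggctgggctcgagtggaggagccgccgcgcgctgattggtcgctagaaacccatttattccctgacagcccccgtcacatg
DPPA2: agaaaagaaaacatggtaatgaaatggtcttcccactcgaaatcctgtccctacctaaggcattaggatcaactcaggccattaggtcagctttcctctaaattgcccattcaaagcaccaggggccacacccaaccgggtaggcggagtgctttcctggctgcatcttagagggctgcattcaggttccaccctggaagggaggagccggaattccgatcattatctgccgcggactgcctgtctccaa
DPPA4: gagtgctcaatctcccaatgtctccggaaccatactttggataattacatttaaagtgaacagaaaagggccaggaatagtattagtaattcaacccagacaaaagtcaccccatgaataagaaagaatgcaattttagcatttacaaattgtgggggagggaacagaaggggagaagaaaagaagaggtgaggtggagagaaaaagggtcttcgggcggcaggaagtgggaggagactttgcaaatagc

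The octamer core was searched as TTTGCAT on both strands and was present in 1384 of 35116 windows (3.94%). Among the 7 genes, NANOG and SOX2 held it. The SOX core, searched as ACAATG on both strands, was in 3261 windows (9.29%) and among the 7 genes in NANOG alone. In NANOG the cores adjoin as the composite TTTGCATNACAATG, which starts 120 bases before the start and occurred in 2 of all windows (0.00570%). In SOX2 the match was the reverse complement, ATGCAAA, 100 bases before the start. The windows of DPPA2 and DPPA4 held neither core. A GC box, searched as GGGCGG on both strands, was in 5 of the 7 windows (SOX2, DPPA4, L1TD1, ZFP42 and KLF4) and in 14973 of all windows (42.6%). None of these motifs overlaps another apart from the parts of the composite. These matches describe letters in a window and are not measured binding.

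Library totals ran from 25181737 counts in the control library to 62904698 in labelled knockdown replicate 1, with 28552070 in replicate 3. Levels are given as CPM, counts relative to the scaled library total (TMM factors of edgeR). Between 65.2% and 68.0% of nonzero counts were even, as if each read pair gave a count of 2, so the 95% intervals below use halved counts and cover counting error only. HYDIN2 itself had 12 counts in the control library, compared with 150, 112 and 11 in the knockdown-labelled replicates. Its ratio to the control library was 4.82 (2.11 to 13.5), 3.75 (1.62 to 10.7) and 0.704 (0.180 to 2.70). None of the 3 libraries was thus lower by more than counting error, and replicates 1 and 2 were higher by more than counting error. The headers of the count tables name a LacZ control and GKAP_KIF27 sets and not the names in the labels. The groups are therefore called by their labels throughout.

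In NT2 cells of both groups, 9 of the 10 factors had more than 6 counts in every library, the fewest being 27 for DPPA2 in replicate 3. None of these 9 differed from the control library by 2-fold in all 3 labelled knockdown libraries. The other factor, ZFP42, had too few counts for a fold. A gene was called when all 3 log2 CPM values were 1 or more above that of the control library, or all 3 were 1 or more below. Of the 9 factors that passed the level filter (mean of the group mean CPMs at least 1), 0 were called higher and 0 lower. Over all 15880 genes that passed, 3.65% were called higher and 2.72% lower, 6.37% in all. The control library lay below all 3 labelled knockdown libraries for 1 factor, SALL4, against 30.1% of all genes. It lay above all 3 for 5 factors (POU5F1, DPPA2, DPPA4, L1TD1 and KLF4), against 34.2% of all genes. For NANOG, SOX2 and PRDM14 it lay inside their range, so 6 of 9 factors were outside in either direction, against 64.4% of all genes. The median over the 9 factors of the mean log2 difference from the control library was -0.24, and that over all genes was -0.02. With 1 library against 3 an exact permutation test has 4 arrangements, and its smallest possible p is 0.25. In bulk RNA, fewer cells that express a gene and less RNA per cell cannot be told apart.

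**Figure D1:**
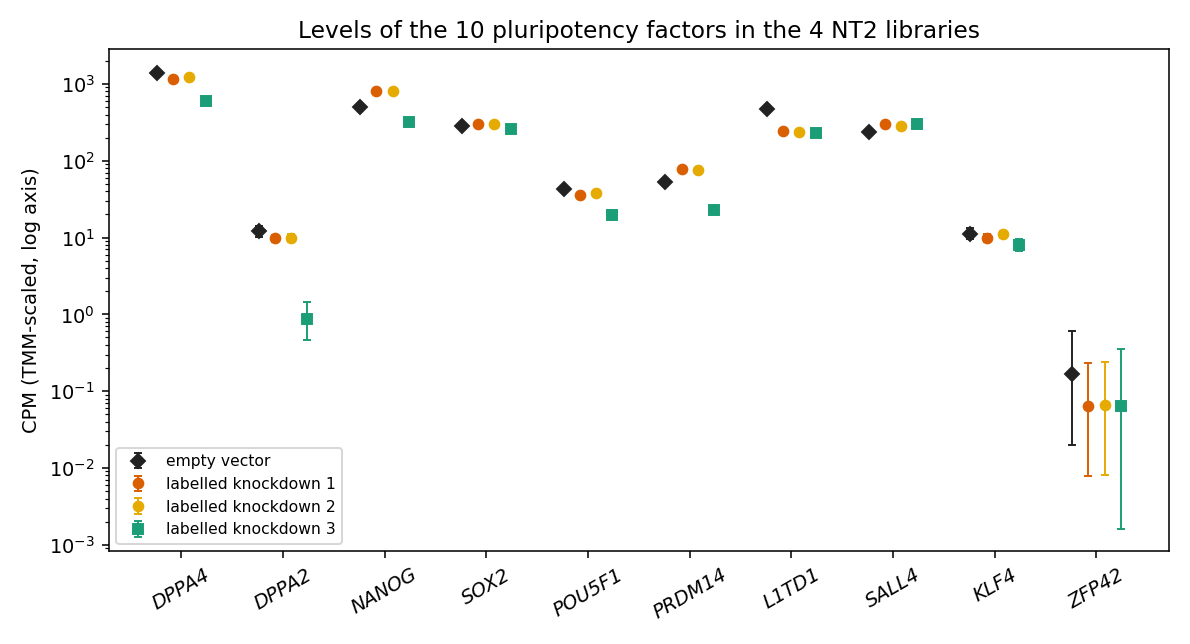
Level of each of the 10 factors in each of the 4 libraries, in CPM on a log axis, with bars for the 95% Poisson interval on halved counts. The libraries lie close together for SOX2 and SALL4, the control library stands above the others for L1TD1, and DPPA2 is lowest in labelled knockdown replicate 3 at 0.864 CPM.

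POU5F1, the POU-domain factor without which the pluripotent state is lost, stood at 42.8 CPM (1028 counts) in the control library. It was at 35.9, 38.5 and 19.4 CPM in labelled knockdown replicates 1, 2 and 3. All 3 were below the control library, with replicate 3 far below the others. The mean log2 difference was -0.52 ± 0.54 (SD, n = 3), so the mean was smaller than the spread between replicates, and without replicate 3 it was -0.20. The ratios to the control library were 0.837 (0.754 to 0.932), 0.900 (0.810 to 1.00) and 0.453 (0.392 to 0.523), and the interval of replicate 2 included 1. With length and GC trends removed, the mean log2 difference of POU5F1 was -0.28 ± 0.50. It was then no longer below the control library in all 3. POU5F1 lies on chromosome 6 (31164337 to 31180731, minus strand, GENCODE 29 on GRCh38) in the major histocompatibility complex. Of the 44 protein-coding genes within 500 kb of it, 18 (40.9%) had 6 counts or fewer in every library, against 3507 of 19849 (17.7%) of all protein-coding genes. Widely expressed neighbours were among them or close to them: DDX39B, an RNA helicase of mRNA export, had 0, 0, 0 and 2 counts in the control library and replicates 1 to 3, and CSNK2B, a kinase subunit, had 2, 11, 4 and 1. These genes were named after their values were seen. Around DPPA2 and DPPA4 the count was 3 of 5 genes, and around NANOG 4 of 17. What part low counting in this region had in the level of POU5F1 was not tested.

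SOX2, the HMG-box partner of POU5F1, was close to the control library in all 3 labelled knockdown libraries. It was at 279 CPM in the control library and at 299.9, 299.6 and 259 CPM in labelled knockdown 1, 2 and 3. Replicates 1 and 2 were slightly above the control library and replicate 3 slightly below it. Its mean log2 difference was 0.03 ± 0.12 (SD, n = 3). The ratio was 1.07 (1.03 to 1.12) in replicate 1 and 0.928 (0.887 to 0.972) in replicate 3. SOX2 lies inside SOX2-OT, a long non-coding RNA gene on the same strand whose annotated exons do not overlap it. SOX2-OT, chosen after its values were seen, had 9.25 CPM in the control library, against 40.8, 40.4 and 23.2 CPM in labelled knockdown 1, 2 and 3. It was called higher, with ratios of 4.42 (3.64 to 5.41), 4.36 (3.59 to 5.35) and 2.51 (2.03 to 3.14), while the gene inside it differed by no more than 1.07-fold in the replicates that were higher. The strand setting of the counting is not given in the sources used here.

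NANOG, a homeodomain factor that stabilises the pluripotent state, differed in opposite directions among the labelled knockdown libraries. It was at 502 CPM (12040 counts) in the control library, at 819.9 and 817 CPM in replicates 1 and 2 and at 323 CPM in replicate 3. The control library thus lay between replicate 3 and the other two. The ratios were 1.63 (1.59 to 1.68), 1.63 (1.58 to 1.68) and 0.644 (0.621 to 0.669), and the mean log2 difference was 0.26 ± 0.77 (SD, n = 3). Without replicate 3 it was 0.71.

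PRDM14, a PR-domain zinc finger factor of pluripotent and primordial germ cells, had the same arrangement as NANOG. It was at 52.3 CPM in the control library, at 77.3 and 75.4 CPM in replicates 1 and 2 and at 22.8 CPM in replicate 3. Its ratios were 1.48 (1.35 to 1.62), 1.44 (1.32 to 1.58) and 0.436 (0.382 to 0.497). The log2 differences of 0.56, 0.53 and -1.20 averaged -0.03 ± 1.01 (SD, n = 3), and the mean without replicate 3 was 0.55.

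DPPA2 and DPPA4, whose proteins act together on chromatin, are neighbours on chromosome 3 (109293788 to 109316517 and 109326141 to 109337572, both minus strand). DPPA4 was at 1398 CPM in the control library, against 1146, 1238 and 604 CPM in labelled knockdown 1, 2 and 3. DPPA2 was at 12.1 CPM in the control library and at 9.73, 9.85 and 0.864 CPM in the replicates. Both genes were below the control library in every labelled knockdown library, by little in replicates 1 and 2 and most in replicate 3. The DPPA4 ratios were 0.820 (0.805 to 0.835), 0.886 (0.870 to 0.902) and 0.432 (0.422 to 0.444). The DPPA2 ratios were 0.803 (0.657 to 0.985), 0.813 (0.664 to 0.998) and 0.0713 (0.0376 to 0.125), the last resting on 27 counts against 291. The 2 genes thus kept nearly the same ratio to the control library in replicates 1 and 2, and in replicate 3 DPPA2 was the lower of them. Per kb of transcript, DPPA4 stood 52.4 times above DPPA2 in the control library, 53.5 and 57.1 times in replicates 1 and 2, and 318 times in replicate 3. The mean log2 differences were -0.56 ± 0.57 for DPPA4 and -1.45 ± 1.98 for DPPA2 (SD, n = 3), and without replicate 3 they were -0.23 and -0.31.

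L1TD1, an RNA-binding protein derived from the LINE-1 retrotransposon and abundant in embryonal carcinoma and embryonic stem cells, was below the control library by nearly the same amount in all 3 labelled knockdown libraries. It was at 472 CPM (11337 counts) in the control library, against 241, 239 and 227 CPM in labelled knockdown 1, 2 and 3. The 3 replicates lay within a narrow band at close to 49.9% of the control library, their mean share of it. The log2 differences were -0.97, -0.98 and -1.06, with an SD of 0.05 (n = 3). All 3 were taken from the same control library, so this SD holds no variation of the control. The ratios were 0.510 (0.493 to 0.528), 0.505 (0.488 to 0.523) and 0.481 (0.461 to 0.502). L1TD1 missed the rule of 2-fold in each library through replicates 1 and 2, and it passed with DESeq2 size factors or with length and GC trends removed. With total counts its mean log2 difference was -0.91, and it was not called.

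SALL4, a zinc finger factor that works with POU5F1 and NANOG, was at 235 CPM in the control library, against 300.3, 282 and 304 CPM in labelled knockdown 1, 2 and 3. It was the 1 factor above the control library in all 3. The log2 difference was 0.33 ± 0.06 (SD, n = 3), well short of 2-fold. As for L1TD1, this SD holds no variation of the single control library. With length and GC trends removed the difference was 0.16 ± 0.09. Its ratios were 1.28 (1.23 to 1.33), 1.20 (1.15 to 1.25) and 1.29 (1.23 to 1.35).

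KLF4, a Krüppel-like factor used in reprogramming and associated with naive pluripotency, was at 11.3 CPM in the control library and at 9.91, 11.0 and 7.94 CPM in the replicates. All 3 were below the control library, but for replicates 1 and 2 the intervals of the ratio, 0.878 (0.715 to 1.08) and 0.972 (0.793 to 1.20), included 1. In replicate 3 the ratio was 0.703 (0.547 to 0.904). ZFP42 had 4 counts in the control library and 4, 4 and 2 in the replicates. These are at or under the floor of 6 counts (3 read pairs), which corresponds to between 0.0964 and 0.250 CPM, so no fold is given. ZFP42, a usual marker of undifferentiated embryonic stem cells, was thus not detectable above the floor in any library of this line.

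**Figure D2:**
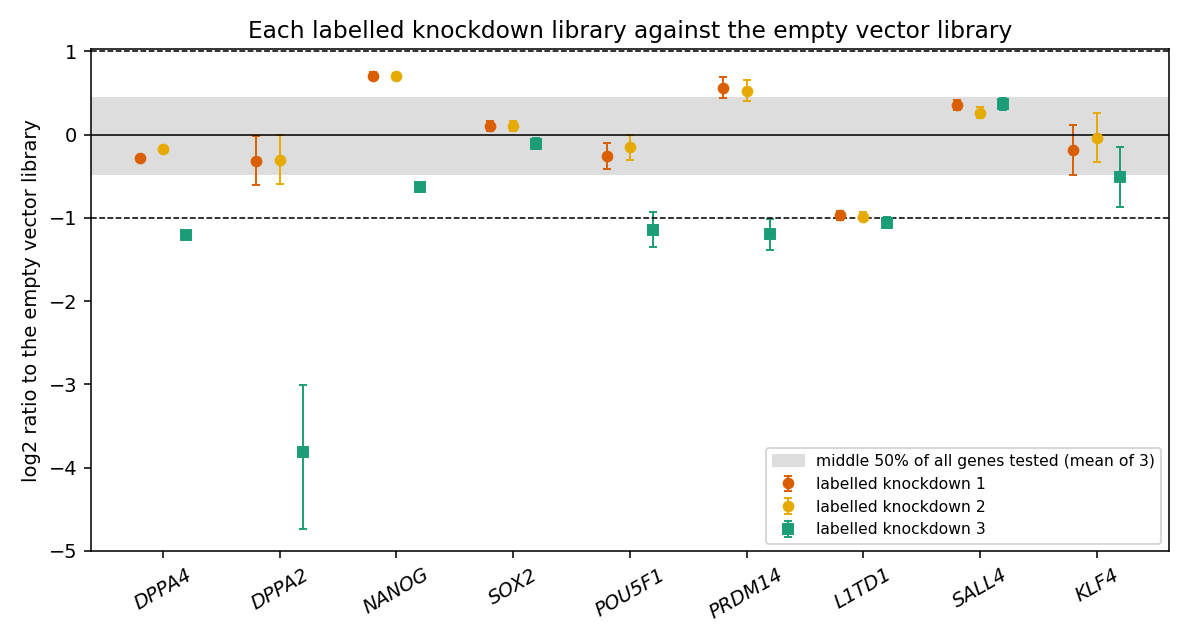
Log2 ratio of each labelled knockdown library to the control library for the 9 factors above the level filter, with bars for the 95% binomial interval on halved counts, dashed lines at 2-fold and a grey band for the middle 50% of all genes. L1TD1 is near the lower 2-fold line in all 3 libraries, SALL4 is above 0 in all 3, and NANOG and PRDM14 change sides in replicate 3.

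edgeR's quasi-likelihood test with Benjamini-Hochberg adjustment called 0 of the 9 factors and 0 of 26029 genes (0%) at 0.05. That test takes its spread from the labelled knockdown replicates and sets 1 library against them. The lowest adjusted p among the factors was that of L1TD1 (edgeR adjusted p = 0.358), and the others ran from 0.583 to 0.962. Without adjustment, 1 of the 9 factors (L1TD1) and 3023 of all genes (11.6%) were under 0.05. The DESeq2 Wald test called 271 of 15725 genes (1.72%) and none of the factors, with an adjusted p of 0.187 for L1TD1, and limma voom called 0 genes. Without replicate 3, edgeR called 11177 genes (44.7%) and 7 of the 9 factors, all but SOX2 and KLF4. In that fit the spread comes from replicates 1 and 2 alone, which differed by at most 0.15 in log2 CPM for any factor, and the single control library is assumed to vary like them.

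Replicate 3 stood apart from replicates 1 and 2 in the factors. Set against both of them pooled, its ratio was 0.0883 (0.0474 to 0.151) for DPPA2, 0.298 (0.267 to 0.332) for PRDM14, 0.395 (0.384 to 0.406) for NANOG, 0.507 (0.497 to 0.518) for DPPA4 and 0.522 (0.461 to 0.589) for POU5F1. The same ratio was 0.761 (0.623 to 0.924) for KLF4, 0.865 (0.836 to 0.895) for SOX2, 0.947 (0.913 to 0.983) for L1TD1 and 1.04 (1.01 to 1.08) for SALL4. The factors thus spread from a large deficit in DPPA2 to near equality in L1TD1 and SALL4. As log2 differences of replicate 3 from the mean of replicates 1 and 2, the factors ran from -3.44 for DPPA2 to 0.06 for SALL4, beside a median of -0.17 over all genes. Over 4 scalings the NANOG value ran from -1.34 to -1.15 and the PRDM14 value from -1.74 to -1.56, while that of L1TD1 ran from -0.08 to 0.11 and so changed sign. PRDM14 and DPPA2 were at least 2-fold below every other library in replicate 3, 2 of 9 factors, against 5.92% of 16087 genes below. None of the factors was 2-fold above, against 5.28% of genes, and 11.2% of genes were 2-fold apart in either direction. By the same measure replicate 1 stood apart in 0 factors and 8 genes (0.0502%), and replicate 2 in 0 factors and 6 genes (0.0376%). The summed level of the 10 factors was 3004, 2940, 3011 and 1769 CPM in the control library and replicates 1, 2 and 3.

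**Figure D3:**
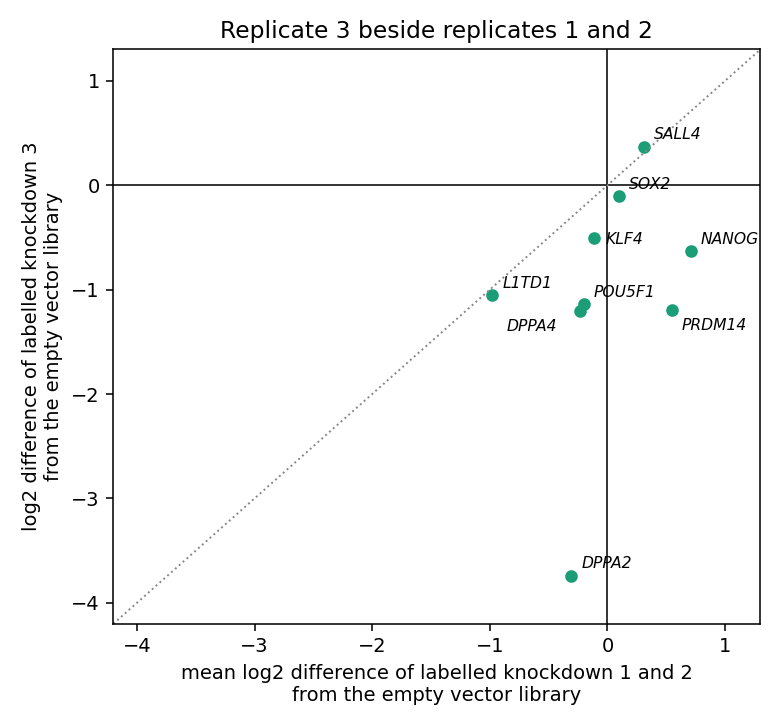
Log2 difference from the control library in labelled knockdown replicate 3 against the mean of replicates 1 and 2, with 1 point per factor and a dotted line of equality. NANOG and PRDM14 lie right of 0 and below 0, DPPA2 lies lowest at -3.74, and L1TD1, SALL4 and SOX2 lie close to the line.

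With replicate 3 left out, 9 of 9 factors had the control library outside the range of the other two. NANOG, SOX2, PRDM14 and SALL4 were higher and POU5F1, DPPA2, DPPA4, L1TD1 and KLF4 were lower. Over all genes 48.8% were higher and 44.1% lower by that rule, so most genes meet it. None of the factors reached 2-fold in both replicates, against 15.1% of all genes.

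Markers of other cell states were measured beside the factors, in 5 lists. The summed mesoderm markers (7 genes, 4 tested) stood at 16.9 CPM in the control library and at 39.6, 36.5 and 92.4 CPM in replicates 1, 2 and 3. The summed trophoblast markers (7 genes, 4 tested) stood at 30.9, 66.5, 62.4 and 150 CPM and the endoderm markers (6 genes, 2 tested) at 4.42, 9.80, 8.31 and 20.1 CPM. These 3 sums were highest in replicate 3, where POU5F1, NANOG, PRDM14, DPPA2 and DPPA4 were lowest, and they rest on few genes. HAND1 alone gave 71.2 CPM of the mesoderm sum in replicate 3, and GATA3 and TFAP2A gave 71.3 and 70.3 CPM of the trophoblast sum. Among the tested genes of these lists, MIXL1, EOMES, HAND1, GATA4, GATA6, CDX2, GATA3 and TFAP2A were each highest in replicate 3. EOMES was at 0.417 CPM in the control library and 7.49 CPM in replicate 3, and GATA4 at 2.37 and 11.3 CPM. The other tested genes were lower there than in the control library: KRT7 was at 7.17 CPM in the control library and 4.45 CPM in replicate 3, and TBX6 at 4.08 and 2.88 CPM. The neural markers (12 genes, 8 tested) summed to 192, 370, 348 and 323 CPM and the fibroblast markers (7 genes, 6 tested) to 473, 599.5, 591 and 354 CPM, neither of them highest in replicate 3. These sums also rest largely on 1 gene each. THY1 gave 362 CPM of the fibroblast sum in the control library and 210 CPM in replicate 3, and NES gave 167 and 270 CPM of the neural sum. The median log2 difference of the tested fibroblast markers in replicate 3 was 0.28. By the 2-fold rule PAX6 and MAP2 of the neural list, HAND1 of the mesoderm list, TFAP2A of the trophoblast list and POSTN of the fibroblast list were called higher, 0 of the endoderm list were, and 0 of any list were lower. That is 5 of 24 tested markers higher, against 3.65% of all genes, and 0 lower, against 2.72%. The lists were chosen with earlier results of these data known, so whether they are enriched for such calls was not tested. PAX6, EOMES, STMN2, ELAVL3 and CDX2 were under 1 CPM in the control library. They passed the level filter only through the labelled knockdown libraries, so they could not be called lower. Of these, PAX6 alone was called higher, at 0 CPM in the control library against a mean of 10.5 CPM. Of the listed markers, NEUROD1, FOXA2, CGA, CGB3 and DCN were at or under the floor in all 4 libraries, and the others were above it in at least 1 library. The part of these markers in the levels of the factors was not tested.

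Levels of different genes were compared as CPM per kb of the longest annotated transcript. In the control library the order was DPPA4 (459 CPM per kb), L1TD1 (123), SOX2 (111), NANOG (96.8), SALL4 (45.1), PRDM14 (22.3), POU5F1 (18.8), DPPA2 (8.77), KLF4 (4.01) and ZFP42 (0.0629). In the labelled knockdown libraries the means were 327 ± 113 for DPPA4, 126 ± 55.2 for NANOG, 114 ± 9.29 for SOX2, 61.2 ± 1.92 for L1TD1 and 56.7 ± 2.20 for SALL4 (CPM per kb, SD, n = 3). L1TD1 thus ranked 2 in the control library and 4 in each labelled knockdown library. The order of NANOG and SOX2 was not the same in all libraries, with NANOG above SOX2 in replicates 1 and 2 and below it in the control library and replicate 3. DPPA2 (4.93 ± 3.73) was above KLF4 (3.42 ± 0.547) in every library but replicate 3. PRDM14 (25.0 ± 13.2) was above POU5F1 (13.7 ± 4.55) in all 4 libraries. With the length of the principal transcript, an alternative chosen after seeing the data, POU5F1 stood at 30.2 CPM per kb in the control library and ranked above PRDM14. Of the 75-base stretches in the principal transcript of POU5F1, 45.0% recurred in other genes, against 0% for PRDM14. Many neighbours of POU5F1 also had few counts. What part uneven counting had in the place of POU5F1 in this order was not tested.

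Some reads of POU5F1 and NANOG cannot be placed with certainty, because both genes share sequence with copies at other places in the genome. In the principal transcript of POU5F1, 606 of 1346 stretches of 75 bases (45.0%) recurred exactly in another annotated gene, most often POU5F1B (283), POU5F1P3 (270) and POU5F1P4 (181). In NANOG the share was 611 of 5109 (12.0%), most often NANOGP8 on chromosome 15 (497). NANOGP1 (323) and AC007536.1 (225), on chromosome 12 like NANOG, came next. SOX2, DPPA2 and L1TD1 shared between 0.615% and 2.28%, and PRDM14, DPPA4, ZFP42, SALL4 and KLF4 shared none. The coding sequences of NANOG and NANOGP8 were the same at 913 of 918 bases (99.5%). The 5 substitutions, counted from 1 at the A of the NANOG start codon with the NANOG base first, were C47A, G144A, G246T, T531C and G759C. The longest run without a difference was 284 bases. The first 60 coding bases, from GENCODE 29, show how little separates them, with the differing base at position 47 in capitals.
NANOG: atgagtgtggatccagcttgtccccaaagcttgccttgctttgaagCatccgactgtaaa
NANOGP8: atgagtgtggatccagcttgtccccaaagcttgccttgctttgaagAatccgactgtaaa

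NANOGP8 was at 81.7 CPM in the control library, against 118, 119 and 41.9 CPM in labelled knockdown 1, 2 and 3, high and low in the same libraries as NANOG. It took 14.0% (13.2 to 14.8) of the counts of both genes in the control library and 12.6% (12.2 to 13.0), 12.7% (12.3 to 13.1) and 11.5% (10.7 to 12.3) in the replicates. The sum of NANOG and NANOGP8 was 583 CPM in the control library and 938, 936 and 365 CPM in the replicates, the same order as for NANOG alone. For POU5F1, 3 of 7 copies were above the floor. All 7 took 10.6% (8.21 to 13.4) of the counts of gene and copies in the control library and 13.6% (11.8 to 15.6), 12.7% (11.0 to 14.7) and 13.6% (10.3 to 17.8) in the replicates. These intervals overlapped. How many counts of a copy came from the gene itself was not tested.

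**Figure D4:**
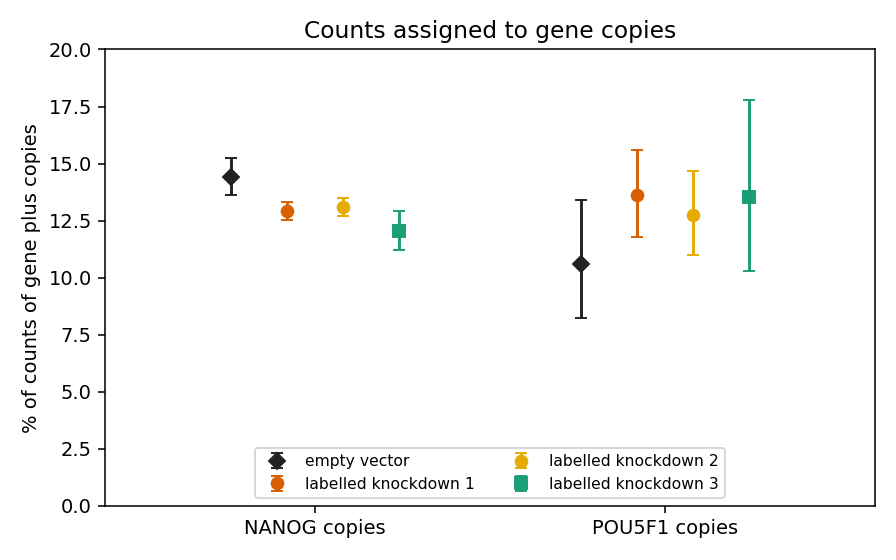
Share of counts assigned to annotated copies of NANOG and POU5F1, as a percentage of the counts of gene plus copies, in each library with the 95% binomial interval on halved counts. The POU5F1 intervals of the 4 libraries overlap, and the NANOG share is highest in the control library, 14.4%, and lowest in replicate 3, 12.0%.

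The wider network was described with 5 lists of 86 further genes, of which 78 passed the level filter. By the 2-fold rule 4 were called higher (5.13%) and 2 lower (2.56%), beside 3.65% and 2.72% of all genes. Without replicate 3 the counts were 12 higher and 5 lower, beside 9.76% and 5.36% of all genes. Among the transcription factors of the primed state, 0 of 12 were called in either direction. OTX2, a homeodomain factor of primed cells, was at 37.6 CPM in the control library and at 68.9, 68.3 and 73.1 CPM in the replicates, all above it but short of 2-fold. Of the 9 tested naive-state factors, 1 was called higher and 1 lower. TBX3, a T-box factor, was at 10.3 CPM in the control library against 49.4 ± 30.3 (SD, n = 3), with log2 differences of 1.71, 1.54 and 3.03. DPPA3 (also called STELLA), a maternal factor that protects DNA methylation, was at 10.5 CPM against 0.707 ± 0.341, with log2 differences of -3.39, -3.58 and -4.85. DPPA3 was thus far below the control library in each of the 3, while DPPA2 was far below it in replicate 3 and by little in replicates 1 and 2.

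Among 22 tested target and surface genes, 1 was called higher and 1 lower. LEFTY2, a secreted inhibitor of NODAL signalling, was at 5.79 CPM in the control library against 19.6 ± 1.95, and the DNA methyltransferase DNMT3B was at 795 CPM against 347 ± 5.83 (SD, n = 3). The log2 differences of DNMT3B were -1.23, -1.18 and -1.19, with little spread between the replicates, as for L1TD1. With total counts as the scaling DNMT3B was no longer called. FGF4, a growth factor gene with a POU5F1 and SOX2 enhancer, was at 70.9 CPM in the control library and at 144, 142 and 43.2 CPM in the replicates, with the control library inside their range as for NANOG. Among 20 tested relatives of the POU, SOX, KLF, SALL, PRDM and YY families, 2 were called higher and 0 lower. PRDM1, the repressor BLIMP1, was at 1.25 CPM against 11.6 ± 5.55, and POU3F2, the neural POU factor BRN2, was at 0.916 CPM against 5.12 ± 2.16 (SD, n = 3). Of 15 protein partners 0 were called. The median of the mean log2 difference was 0.25 over the primed-state factors, 0.27 over the naive-state factors, -0.15 over the targets, 0.63 over the relatives and -0.06 over the partners.

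**Figure D5:**
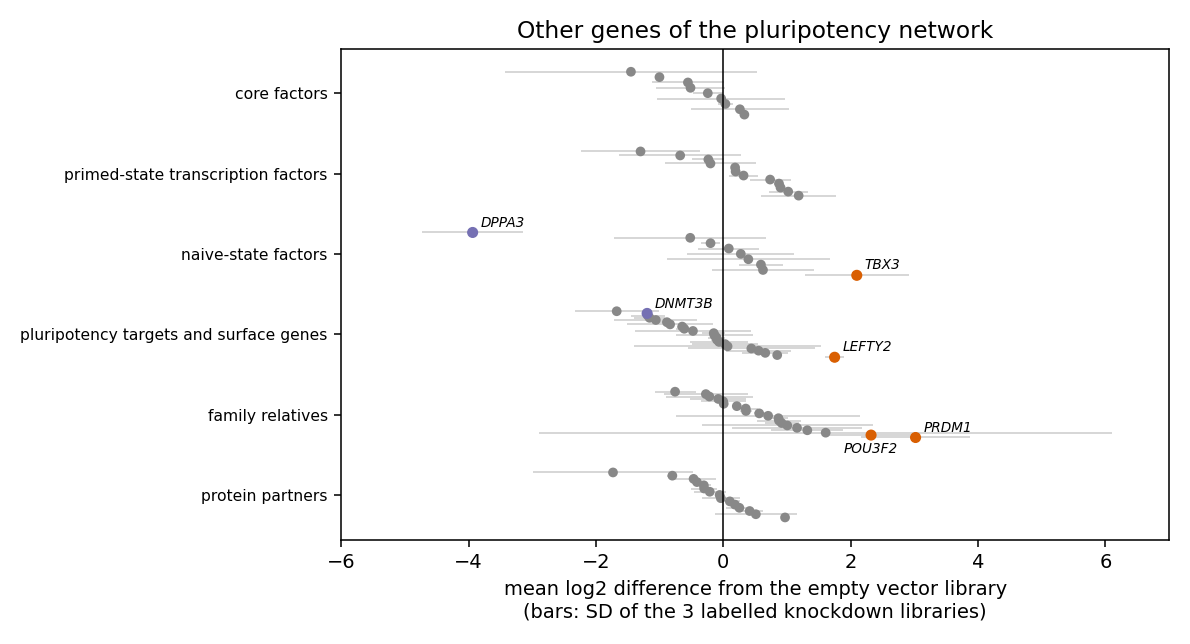
Mean log2 difference from the control library for the core factors and 5 lists of other network genes, with bars for the SD of the 3 labelled knockdown libraries and coloured points for genes past the 2-fold rule (orange higher, purple lower). No core factor is coloured, and the coloured genes are TBX3, LEFTY2, PRDM1 and POU3F2 above 0 and DPPA3 and DNMT3B below 0.

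The genes closest to the core trio in their 3 differences from the control library were found among 9839 genes with a mean of at least 10 CPM, by Euclidean distance in log2 units over those 3 values. For POU5F1 they were ACP1 (distance 0.0355), FGGY (0.0462) and ARHGAP45 (0.0521). For NANOG they were GUF1 (0.0442), NDC80 (0.0591) and MYO1D (0.0900), and for SOX2 NPRL3 (0.0239), PAFAH2 (0.0316) and SS18 (0.0322). None of these is a core factor or on the network lists.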

How the data were processed

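RNA-seq was made from NT2 cells in 4 libraries, ribosome-depleted and strand-specific per the labels' protocols. The authors deposited raw counts per gene, 1 table per library. The submitters' processing notes name STAR 2.7.11b, featureCounts 2.0.6, DESeq2 and the build hg38 (GRCh38). The annotation release and strand setting are not given in the sources used here. Groups came from the sample titles.

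CPM used TMM factors from edgeR 4.0.16 (R 4.3.3), log2 CPM a prior count of 2, and genes entered at a mean of the group mean CPMs of at least 1. Intervals were exact Poisson (levels) or Clopper-Pearson (ratios, shares) at 95% on counts divided by 2. edgeR's quasi-likelihood test was fitted over all genes kept by filterByExpr with Benjamini-Hochberg adjustment. DESeq2 1.42.0 and limma 3.58.1 were alternatives, beside other scalings, priors, filters, folds, thinning, trend removal and leaving out each labelled knockdown library. The steps were tested on simulated data. Gene models came from GENCODE 29, matching 58269 of 62696 identifiers.

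The 10 members and the lists were chosen with earlier results of these data known. Named are all 10 members, the genes of each network list past the 2-fold rule (at most 4 per direction), FGF4, OTX2 and the 3 nearest patterns of each of POU5F1, NANOG and SOX2. Marker genes past the rule, SOX2-OT and neighbours of POU5F1 were named after their values were seen.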

Additional observations from a re-analysis of the deposited data

How the results depend on the processing

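Counts were few for ZFP42, which was at or under the floor, and for DPPA2 in replicate 3 (27 counts). ZFP42 had 4 counts in the control library and no more in replicates 1 and 2, whose totals were larger. No paired analysis was possible because only the labelled knockdown libraries carry replicate numbers and the control is 1 library. No factor was called higher under any alternative run. The number called lower went from 0 to 1 (L1TD1) with DESeq2 size factors, with length and GC trends removed and at 1.5-fold, and to 2 (DPPA2 and L1TD1) by the mean of the labelled knockdown libraries. Factors above the control library in every labelled knockdown library went from 1 to 2, SOX2 joining SALL4, with total counts, upper quartile, protein-coding scaling and trend removal, and ranged from 1 to 4 when each replicate was left out (4 without replicate 3). Those below it went from 5 to 2 (DPPA4 and L1TD1) with trend removal. Over all genes, those above the control library numbered 4784 in the main setting. They were 5645 with total counts, 5014 with upper quartile, 5043 with protein-coding scaling, 4010 with trend removal and 7713 without replicate 3. All genes below it numbered 5436, and 5311 with trend removal. Network genes called higher went from 4 to 13 at 1.5-fold and 10 by the mean, and ranged from 4 to 12 over the replicates left out. Those called lower went from 2 to 1 with total counts (DNMT3B lost), 9 at 1.5-fold and 8 by the mean, and ranged from 2 to 5. In both, the highest was without replicate 3. edgeR calls went from 0 to 271 with DESeq2 and ranged from 17 to 11177 over the replicates left out, with 0 to 7 of the factors. Factors 2-fold from all other libraries in replicate 3 went from 2 to 1 (DPPA2) with total counts. All genes called higher numbered 580, but 1542 without replicate 3, 1605 at a mean CPM of 0.1, 377 at 5, 1590 at 1.5-fold and 1356 by the mean. All genes called lower numbered 432, but 846, 1035, 254, 1526 and 1074 in that order, and 272 with trend removal. The mean log2 difference of SOX2 was -0.00 without replicate 1 or 2 and -0.01 with libraries thinned to the smallest total, and that of PRDM14 turned positive with total counts, without replicate 3 (0.55) and with trend removal. The cause was not tested.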
